A study of Mus musculus with 12 samples.

Results

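The genes described here are 8 transcription factor genes that act in the trophectoderm and its descendants, Gata2, Gata3, Tfap2a, Tfap2c, Eomes, Elf5, Tead4 and Hand1, and the genes of the simple-epithelial keratin pair, Krt8 and Krt18. Every array probe whose transcript accession maps to one of these 10 symbols was taken, with no regard to its values. This gave 13 of 41174 probes on the array design used for vitamin C and 12 of 55681 on the design used for retinoic acid, and each gene had at least 1 probe on both. The designs share the probe of Krt18, 1 of the 2 vitamin C probes of Gata2, and the probes of Tfap2c, Elf5 and Hand1. The other genes were read by different probes.

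The samples were J1 cells, a mouse embryonic stem cell line, grown on gelatin in medium with Knockout Serum Replacement and leukaemia inhibitory factor (LIF) at 1000 U/mL, which keeps mouse stem cells undifferentiated. These conditions held for all 4 groups of 3 samples. For 24 h cells received vitamin C (VC, labelled as 50 µg with no volume) or 1 µL of its solvent ddH2O, and on the other array design retinoic acid (RA, 1 µM) or 1 µL of its solvent DMSO. Levels are log2 Agilent one-colour signals relative to the 75th percentile of the same array, so a level of 0 is that percentile, and levels of different probes cannot be ranked. A gene is given by its brightest probe, and was tested where the scanner software called that probe well above background in 3 or more of a comparison's 6 arrays.

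The trophectoderm is the outer epithelium of the blastocyst and gives rise to the trophoblast of the placenta. TEAD4, with its coactivator YAP, acts at the top of the network in outer cells, upstream of Cdx2 and Gata3, while EOMES, ELF5 and TFAP2C maintain trophoblast stem cells and HAND1 promotes giant cell formation. Keratins 8 and 18 pair into the first intermediate filaments of the embryo, and the same pair is found in other simple epithelia. Several of the regulators also act elsewhere: TFAP2C in germ cell precursors, TFAP2A in surface ectoderm and neural crest, GATA2 and GATA3 in blood lineages, EOMES in endoderm and mesoderm, and HAND1 in the heart.

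The regions just before 4 of the start sites are shown, chosen with the RA values known. Krt8 and Krt18 are adjacent protein-coding genes and rose together under RA, and Gata3 rose most by the scanner's processed signal. Eomes was the only tested gene that fell and had such a region at hand. Its change was smaller than those of Gata2 and Tfap2a, whose regions are not shown. RefSeq promoter windows (GRCm38.p6, 250 bases before the start, 5′ to 3′ on the gene's strand) were at hand for 7 of the 10 genes, in 10 windows, and not for Tfap2c, Tead4 or Hand1. Capitals mark the matches described after them.

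Krt8 (chr15:102004343-102004592, minus strand): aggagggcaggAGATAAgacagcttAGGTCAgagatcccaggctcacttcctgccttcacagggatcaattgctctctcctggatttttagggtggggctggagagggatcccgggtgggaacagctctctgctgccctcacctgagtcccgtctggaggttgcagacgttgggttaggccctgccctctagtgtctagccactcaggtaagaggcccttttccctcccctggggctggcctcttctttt
Krt18 (chr15:102027966-102028215, plus strand): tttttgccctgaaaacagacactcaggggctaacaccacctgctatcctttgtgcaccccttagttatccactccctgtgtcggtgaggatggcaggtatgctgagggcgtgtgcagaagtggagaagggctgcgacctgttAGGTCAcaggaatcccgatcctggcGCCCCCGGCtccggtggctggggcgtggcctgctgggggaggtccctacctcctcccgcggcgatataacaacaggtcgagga
Gata3 (chr2:9878601-9878850, minus strand): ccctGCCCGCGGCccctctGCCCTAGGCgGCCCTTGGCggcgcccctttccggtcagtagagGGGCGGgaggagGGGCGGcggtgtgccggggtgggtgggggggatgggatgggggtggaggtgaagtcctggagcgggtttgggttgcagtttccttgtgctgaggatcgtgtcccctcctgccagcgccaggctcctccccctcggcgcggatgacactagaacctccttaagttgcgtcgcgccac
Eomes (chr9:118477939-118478188, plus strand): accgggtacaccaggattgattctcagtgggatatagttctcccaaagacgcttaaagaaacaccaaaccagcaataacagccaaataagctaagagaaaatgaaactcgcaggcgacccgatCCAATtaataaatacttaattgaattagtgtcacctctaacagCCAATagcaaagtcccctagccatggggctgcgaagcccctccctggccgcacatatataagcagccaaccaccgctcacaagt

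On both strands 11 motifs were searched. They were the TATA box (TATAAA), the GC box (GGGCGG), the CCAAT box (CCAAT), an E box (CACGTG) and the core sites of AP-2 (GCCNNNGGC), of AP-1 (TGANTCA), of GATA factors (AGATAA), of TEAD factors (GGAATG) and of nuclear receptors (AGGTCA). The last was also searched as a direct repeat with 5 bases between (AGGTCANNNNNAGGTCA) and with 2 bases between (AGGTCANNAGGTCA). Krt8 and Krt18 each held 1 AGGTCA, starting 225 and 108 bases before the start, and 14.0% of 32851 RefSeq windows of this length hold that motif. Krt8 also held AGATAA at 239 bases, found in 9.99% of windows, and Krt18 held GCCNNNGGC at 83 bases, found in 13.7%. In the Gata3 window there were 3 matches to GCCNNNGGC and 2 to GGGCGG, which 32.7% of windows hold. Eomes had 2 matches to CCAAT, found in 33.8% of windows. Neither repeat of the core site was in any window of these genes, and each was in 3 of the 32851 windows. No marked match overlapped another. A match is a run of letters and not a measured binding site.

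**Figure D1:**
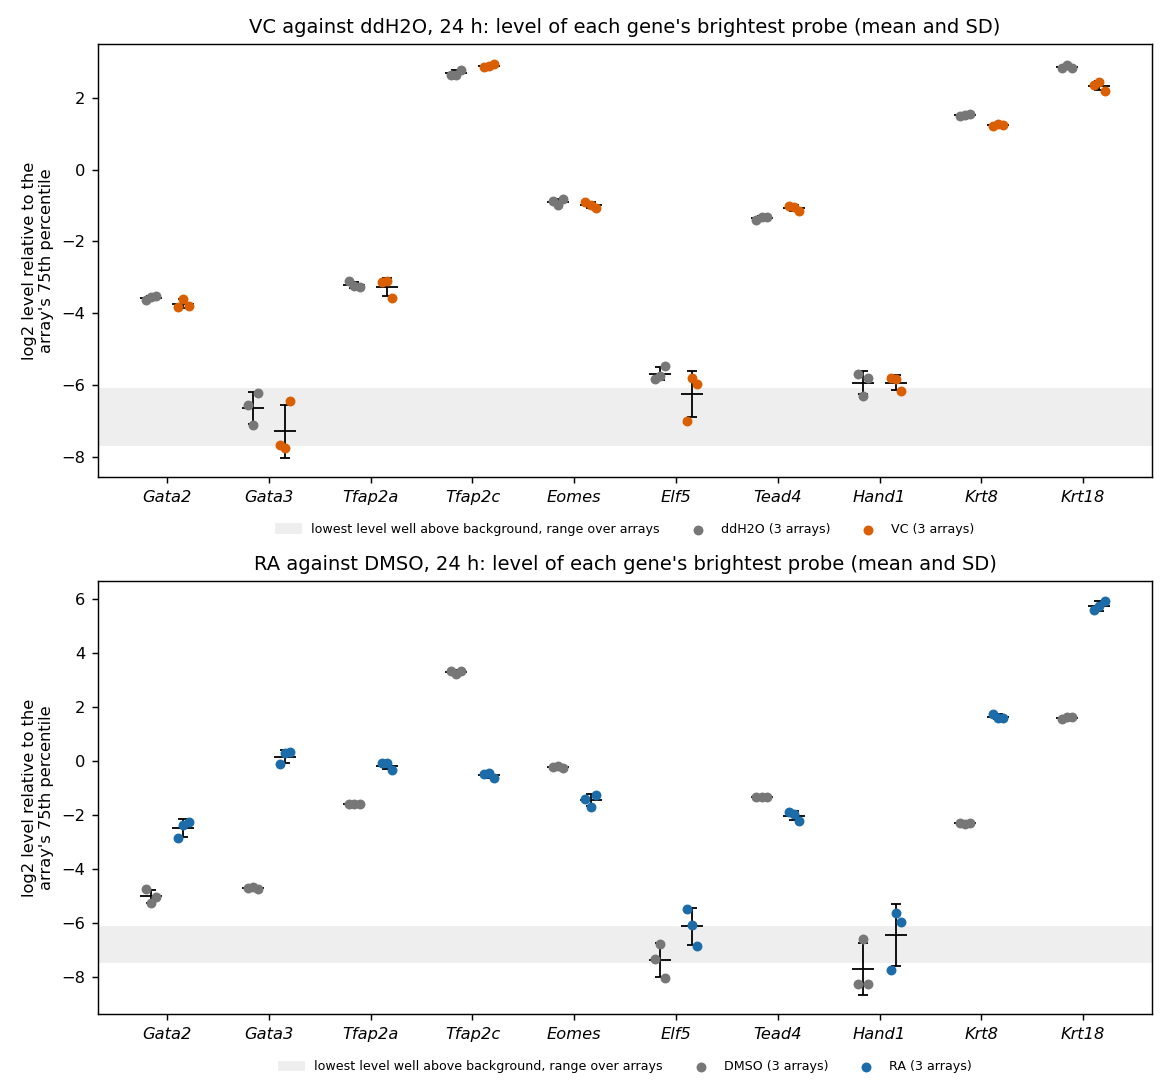
Levels of the brightest probe of each gene, as log2 relative to the array's 75th percentile, in ddH2O and VC (upper panel) and in DMSO and RA (lower panel). Points are arrays, 3 in each group, and bars are the mean and SD. The grey band spans the lowest level well above background over the arrays, from -7.68 to -6.13 in the upper panel and from -7.47 to -6.16 in the lower one. Under RA, Gata2, Gata3, Tfap2a, Krt8 and Krt18 lie above DMSO and Tfap2c, Eomes and Tead4 below it, while the groups of the upper panel lie close together.

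In RA against DMSO, all 8 genes that could be tested were called by limma at a Benjamini-Hochberg adjusted p under 0.05, 5 higher and 3 lower. Of all 16026 genes tested, 78% were called, 35.9% higher and 42.1% lower, so a call by itself says little about these genes. At least 2-fold with a call were 7 of the 8 genes, against 17.5% of all genes for rises and 15% for falls. Groups of arrays did not overlap for all 8, as for 81.7% of all genes. The DMSO arrays shared 1 slide and the RA arrays a different one, which means that slide and treatment cannot be told apart. In bulk RNA, fewer cells of a type and less RNA per cell cannot be told apart either.

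Both keratins rose. Krt18, the type I partner of the pair, had levels of 1.54, 1.62 and 1.62 in DMSO and of 5.58, 5.72 and 5.93 in RA. The 2 groups of arrays were far apart, with every RA array higher. Krt18 was 17.7-fold higher in RA, a log2 difference of 4.15 (SE 0.10, limma adjusted p = 3.92e-07), the 299th largest rise of all genes tested. Krt8, the type II partner, had levels of -2.29, -2.35 and -2.30 in DMSO and of 1.75, 1.57 and 1.60 in RA. It was 15.5-fold higher, a log2 difference of 3.96 (SE 0.07, limma adjusted p = 1.61e-07), again with no overlap. Within arrays the change of Krt18 exceeded that of Krt8 by 0.19 log2, with overlapping groups and a two-sided exact permutation p of 0.4, where 3 against 3 samples cannot go below 0.1. That difference was within the spread between arrays. Both keratins have processed pseudogenes, and whether their transcripts add to these probes was not tested.

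Among the neighbours of the pair, which were looked up after these values were seen, the rise was not shared at its size. Eif4b, next to Krt18, differed by -0.21 log2 and was not called (limma adjusted p = 0.198), Krt79 was 0.44 higher, Tns2 1.07 higher and Igfbp6 1.90 higher. Spryd3 differed by 0.16 and was not called, with limma adjusted p = 0.081. The keratin genes Krt78, Krt4 and Krt76 on the other side of Krt8 were below the filter.

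The GATA factors rose as well. GATA3 acts beside CDX2 in the trophectoderm. Gata3 levels were -4.73, -4.68 and -4.76 in DMSO and -0.12, 0.28 and 0.32 in RA, so that it was above background in all 6 arrays and every RA array was higher. Gata3 was 29.5-fold higher in RA, a log2 difference of 4.88 (SE 0.13, limma adjusted p = 5.02e-07), the 190th largest rise. Gata2, which regulates placental hormone genes in trophoblast giant cells, had levels of -4.75, -5.25 and -5.06 in DMSO and of -2.85, -2.36 and -2.25 in RA. Both groups lay low in the array's range and did not overlap. It was 5.79-fold higher, a log2 difference of 2.53 (SE 0.20, limma adjusted p = 4.73e-05). With normexp background correction and spots of high local background left out, both in place of the scanner's processed signal, the log2 differences were smaller, 3.11 for Gata3 and 1.43 for Gata2, and both stayed called.

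The AP-2 factors moved in opposite directions. Tfap2c had levels of 3.34, 3.23 and 3.33 in DMSO and of -0.50, -0.44 and -0.65 in RA. Every RA array was far below every DMSO array. Tfap2c was 14.2-fold lower, a log2 difference of -3.83 (SE 0.08, limma adjusted p = 2.15e-07), the 153rd largest fall of all genes tested. Tfap2a rose 2.67-fold by its probe for transcript NM_001122948 (log2 difference 1.42, SE 0.08, limma adjusted p = 1.47e-05), from -1.59, -1.61 and -1.58 in DMSO to -0.09, -0.10 and -0.34 in RA. Its other probe, for NM_011547, was not well above background on any of the 6 arrays. The same transcript was the one read in VC, so the Tfap2a values of the 2 comparisons come from probes annotated to different transcripts. The paralog Tfap2b, a neural crest and kidney factor, was not well above background in DMSO and was roughly 11.2-fold higher in RA. Tfap2e was 3.71-fold higher.

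Eomes, a T-box factor needed for trophoblast stem cells and for endoderm, was lower by both of its probes. The brighter probe read -0.22, -0.18 and -0.27 in DMSO and -1.43, -1.71 and -1.26 in RA. The fall was 2.37-fold (log2 difference -1.24, SE 0.12, limma adjusted p = 0.000117). The dimmer probe read -2.91, -2.87 and -3.19 in DMSO and -5.25, -4.49 and -4.38 in RA, where the first RA array was not well above background. By that probe the fall was 3.29-fold (log2 difference -1.72, SE 0.25, limma adjusted p = 0.00114 over all probes). The groups did not overlap in either probe. Over all probes, 71.6% of 37060 were called, and of the 12 probes of the 10 genes 9 were tested and 9 called.

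Tead4, which encodes the DNA-binding partner of YAP in outer cells, had the smallest change of the 8, except with spike-in scaling, where that of Tfap2a was smaller (0.93). Its levels were -1.35, -1.34 and -1.33 in DMSO and -1.90, -1.97 and -2.23 in RA, without overlap. Tead4 was 1.62-fold lower, a log2 difference of -0.70 (SE 0.10, limma adjusted p = 0.000664), the 3854th largest fall. It stayed called in every alternative, but its log2 difference ranged from -0.25 with normexp and spots of high local background left out to -1.18 with spike-in scaling.

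Elf5, an Ets factor of trophoblast stem cells, and Hand1, the giant cell factor, were not well above background on any DMSO or RA array, and no fold is given. Elf5 levels were -7.33, -6.78 and -8.06 in DMSO and -5.49, -6.07 and -6.85 in RA. Hand1 levels were -8.25, -6.62 and -8.28 in DMSO and -7.77, -5.64 and -5.96 in RA. The groups overlapped for both genes. With no filter on dim probes Elf5 passed the threshold (limma adjusted p = 0.0494), but on signals that were not above background.

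**Figure D2:**
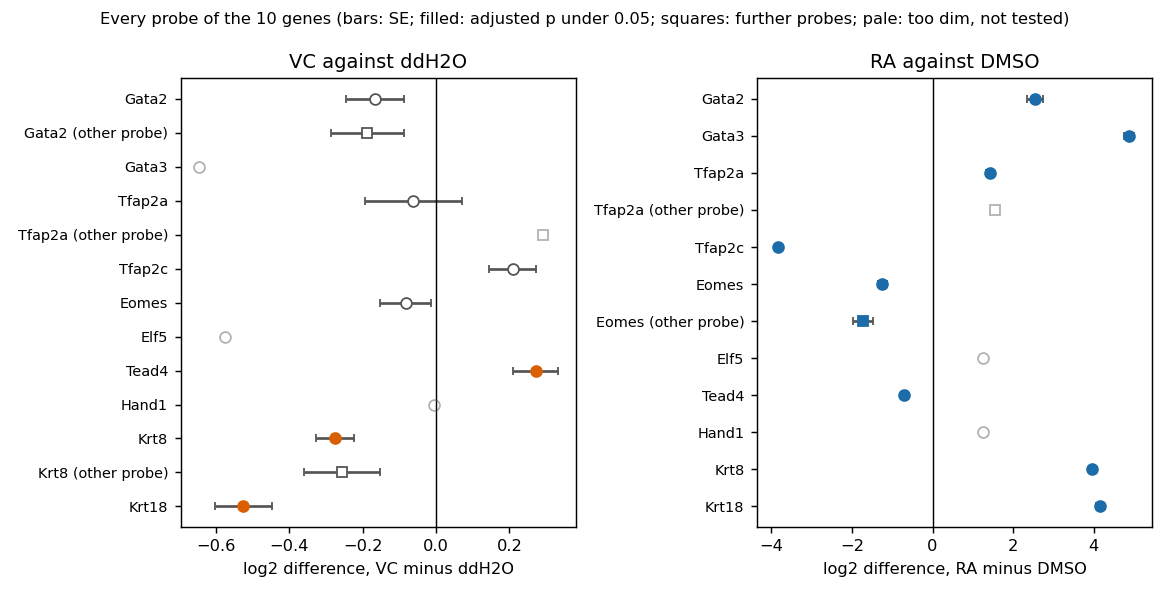
Log2 difference of treated minus control for every probe of the 10 genes, in VC against ddH2O and in RA against DMSO. Error bars are the SE of the limma fit, filled symbols are called, squares are further probes and pale symbols were too dim to test. Among tested probes the differences run from -3.83 for Tfap2c to 4.88 for Gata3 under RA, and from -0.53 for Krt18 to 0.27 for Tead4 under VC. The untested VC probes run from -0.65 for Gata3 to 0.29 for the dimmer probe of Tfap2a.

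In VC against ddH2O, Krt18 and Krt8 were slightly lower and Tead4 slightly higher, and no tested gene of the 10 reached 2-fold, as 0.0138% of all genes did among calls higher and 0.268% among calls lower. Of the 7 genes tested 1 was called higher and 2 lower, and 4 were not called. Among all 14537 genes tested 17.2% were called, 6.59% higher and 10.6% lower. Counted by probe, 9 of 13 were tested and 2 called, beside 8.29% of 28166 probes overall. Groups of arrays did not overlap for 4 of the 7 genes, against 42.1% of all genes. VC replicate 3, alone on its slide, was scanned on another day. These counts depend on single arrays: 3 genes were called without VC replicate 3, 2 without VC replicate 2 or ddH2O replicate 3, 1 without ddH2O replicate 1 or VC replicate 1, and 0 without ddH2O replicate 2 (limma, 3 at an unadjusted p under 0.05). Calls over all genes fell too, from 2494 to 1322 without VC replicate 3, 1812 without VC replicate 2 and 1746 without ddH2O replicate 3. They were 763 without ddH2O replicate 1, 650 without VC replicate 1 and 400 without ddH2O replicate 2. With slide as a fixed block limma called 0 of all genes tested, and so none of the 7. Of the 7, 3 were then at an unadjusted p under 0.05. With slide as a random block 3 were called, beside 2690 of all genes.

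Krt18 levels were 2.84, 2.92 and 2.83 in ddH2O and 2.35, 2.46 and 2.20 in VC, so every VC array was lower. It was 1.44-fold lower, a log2 difference of -0.53 (SE 0.08, limma adjusted p = 0.0116), the 630th largest fall. Between the 2 ddH2O and 2 VC arrays that shared a slide the difference was -0.47, and between the arrays on slides of their own, 1 of each group, it was -0.64. Adjusted p was 0.00993 with slide as a random block, but 0.0663 with slide as a fixed block and 0.0582 without ddH2O replicate 2, all by limma, so that the call was lost in the last 2.

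Krt8 had 2 probes. The brighter one read 1.49, 1.53 and 1.56 in ddH2O and 1.21, 1.28 and 1.25 in VC, without overlap. It was 1.21-fold lower, a log2 difference of -0.28 (SE 0.05, limma adjusted p = 0.0211), with -0.30 on the shared slide and -0.23 across the other slides. The dimmer probe read 1.00, 1.19 and 1.25 in ddH2O and 0.78, 0.83 and 1.06 in VC. Its groups overlapped, and its difference of -0.26 (SE 0.10) was not called, with limma adjusted p = 0.171 over all probes. On the shared slide that probe differed by -0.41 and across the other slides by 0.06. The call of the brighter probe was lost in 8 of 20 alternatives, the fixed slide block among them (limma adjusted p = 0.0934), and not with slide as a random block (0.0182). Within arrays the change of Krt18 minus that of Krt8 was -0.25 log2, without overlap and with a two-sided exact permutation p of 0.1, the smallest possible here.

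Tead4 was the gene called higher. Its levels were -1.40, -1.32 and -1.32 in ddH2O and -1.02, -1.04 and -1.16 in VC. The groups did not overlap, and the rise was 1.21-fold (log2 difference 0.27, SE 0.06, limma adjusted p = 0.0322). The difference was 0.29 on the shared slide and 0.23 across the others. It was not called over all probes (limma adjusted p = 0.056) and lost its call in 10 of 20 alternatives, in which limma's adjusted p ran up to 0.106. With slide as a random block it was called, at a limma adjusted p of 0.0251.

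Tfap2c levels were 2.65, 2.64 and 2.78 in ddH2O and 2.86, 2.88 and 2.95 in VC. Every VC array was higher, and the difference of 0.21 (SE 0.06) was not called, with limma adjusted p = 0.0681. It was called in 2 alternatives, median scaling (limma adjusted p = 0.0463) and an intensity trend in the variance model (0.0317).

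The other genes measured in VC overlapped between the groups. Eomes differed by -0.08 (SE 0.07, limma adjusted p = 0.442), from -0.89, -0.99 and -0.83 in ddH2O to -0.91, -0.98 and -1.06 in VC. Gata2 differed by -0.17 (SE 0.08, limma adjusted p = 0.189) by its brighter probe and by -0.19 (SE 0.10, limma adjusted p = 0.275 over all probes) by the other. Its brighter probe read -3.64, -3.56 and -3.52 in ddH2O and -3.84, -3.59 and -3.79 in VC. For Tfap2a the levels were -3.11, -3.25 and -3.27 in ddH2O and -3.15, -3.10 and -3.57 in VC. Its difference of -0.06 (SE 0.13, limma adjusted p = 0.77) was 0.14 on the shared slide and -0.46 across the others, and its second probe was above background on no array.

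Gata3, Elf5 and Hand1 were too dim to test in VC. Gata3, by another probe than in RA, was not well above background on any of the 6 arrays, with levels from -7.12 to -6.24 in ddH2O and from -7.76 to -6.44 in VC. Elf5 was above background on 1 ddH2O array and Hand1 on 1 VC array. Elf5 levels ran from -5.83 to -5.48 in ddH2O and from -7.00 to -5.81 in VC, and Hand1 levels from -6.30 to -5.71 and from -6.18 to -5.80, so the groups of all 3 genes overlapped.

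**Figure D3:**
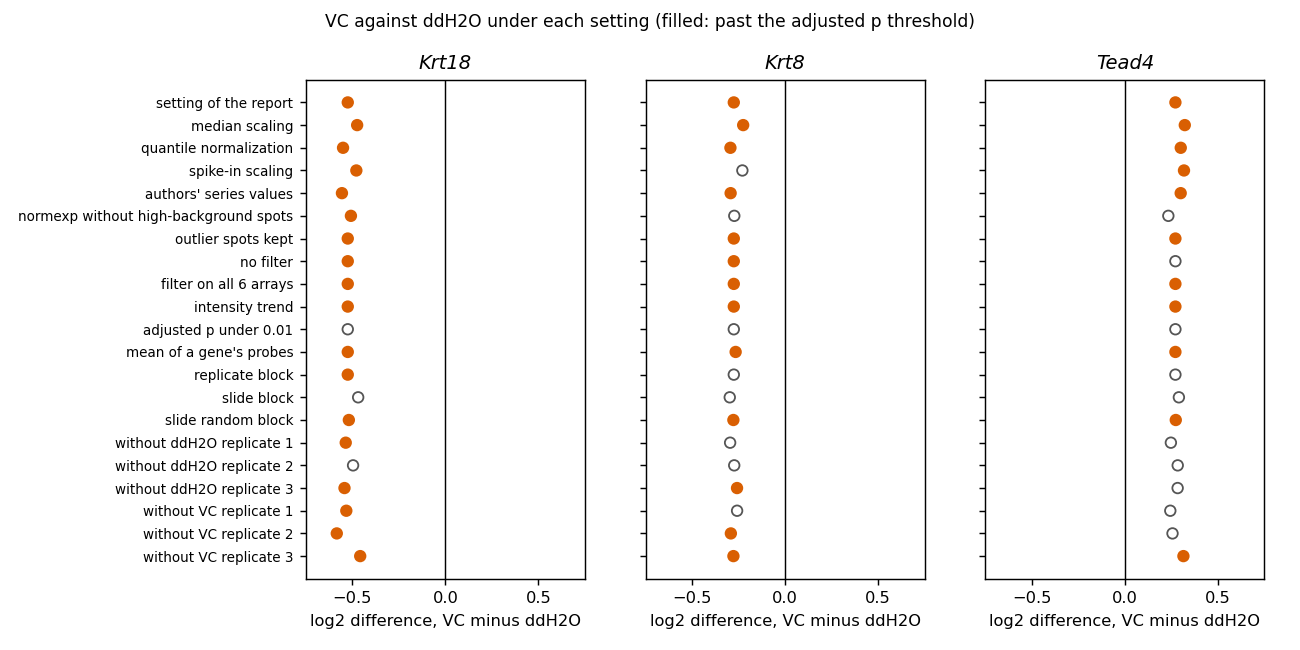
Log2 difference of VC minus ddH2O for Krt18, Krt8 and Tead4 under each setting of the analysis. Filled symbols are differences called at the threshold of that setting, open symbols are not called, and the line marks 0. Krt18 stays between -0.58 and -0.46, Krt8 between -0.30 and -0.23 and Tead4 between 0.23 and 0.32, and each is called in some settings and not in others.

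Cdx2, the homeobox gene that specifies the trophectoderm, was measured beside these genes. In RA its levels were -5.06, -5.36 and -5.85 in DMSO and -5.19, -5.70 and -2.79 in RA, with only the third RA array high. It was not called (log2 difference 0.86, SE 0.75, limma adjusted p = 0.322). In VC its levels were -5.43, -5.38 and -5.33 in ddH2O and -5.61, -6.85 and -5.86 in VC, without overlap, and its difference of -0.72 (SE 0.30) was not called either, with limma adjusted p = 0.145. Pou5f1, the stem cell factor that opposes Cdx2, was 33.0-fold lower in RA, a log2 difference of -5.04 (SE 0.31, limma adjusted p = 1.74e-05) and differed by 0.02 in VC (SE 0.10, limma adjusted p = 0.901).

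Beyond the 10 genes, 4 lists of related genes were counted. Other trophoblast genes had 16 of 27 tested genes higher and 9 lower in RA, with a median log2 difference of 0.86. Over all genes the median was -0.07, and 35.9% were called higher and 42.1% lower by limma. The RA counts of every list stand beside these shares unless another scaling is named. Of all 16026 genes, median scaling called 3981 higher and 8796 lower, quantile normalization 5673 and 6172, and spike-in scaling 2904 and 8539. List counts under those scalings stand beside these numbers. Median scaling gave 14 and 9 trophoblast genes with a median of 0.52, quantile normalization 16 and 7 with 0.53, and spike-in scaling 12 and 9 with 0.38. Plac1, an X-linked placental gene, was not well above background in DMSO and was roughly 26.9-fold higher. Peg10, an imprinted retrotransposon-derived gene, was 21.15-fold higher. Rhox6 and Rhox9, placental homeobox genes, were 7.46-fold and 6.36-fold higher, and the lactogen genes Prl3d1 and Prl3b1 were 3.18-fold and 2.19-fold higher. Esrrb and Sox2, shared by trophoblast stem cells and embryonic stem cells, were 62.1-fold and 4.20-fold lower. The spongiotrophoblast factor Ascl2 was 3.09-fold lower and Plet1 2.96-fold lower. Tpbpa and Hsd3b6, which mark differentiated trophoblast, were not well above background on any DMSO or RA array.

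In VC 2 of 23 other trophoblast genes were higher and 5 lower, with a median of 0.05. Over all genes 6.59% were called higher and 10.6% lower in VC, the shares beside which the VC counts of every list stand unless another scaling is named. Bmp4 (log2 difference 0.42) and Esrrb (0.40) were higher, and Sct (-0.43) and Esx1 (-0.40) lower.

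Genes of the Hippo pathway, which controls YAP and thereby TEAD4, had 17 of 23 higher and 3 lower in RA, with a median of 0.84. Median scaling gave 11 and 6 with a median of 0.50, and spike-in scaling 10 and 5 with a median of 0.35. Ankrd1, a YAP and TEAD target, was not well above background in DMSO and was roughly 43.8-fold higher. The further targets Ccn1 and Ccn2 were 8.23-fold and 2.05-fold higher, the call of Ccn2 being lost under spike-in scaling (log2 difference 0.55). Amot, which holds YAP out of the nucleus, was 15.3-fold higher. Tead3 was 5.79-fold higher, Tead1 1.46-fold and Tead2 1.17-fold. The calls of Tead1 and Tead2 were lost under median and spike-in scaling, where the log2 difference of Tead1 was 0.20 and 0.06 and that of Tead2 -0.12 and -0.26. The upstream regulators Wwc1 and Nf2 were 2.09-fold and 1.68-fold lower. Yap1 differed by 0.05 and was not called, and its sign depended on the scaling. In VC 1 of 20 was higher and 3 lower, with a median of 0.03, whereas median scaling gave 3 and 2. Vgll3, a TEAD cofactor (-0.73), and Amot (-0.48) were lower, and the kinase gene Lats2 (0.49) higher.

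Other keratins and simple epithelial genes were split in RA, with 16 of 32 higher and 10 lower and a median of 0.25. The keratins Krt19 (4.83-fold), Krt7 (4.42-fold) and Krt20 (7.25-fold) were higher, and Krt15 was roughly 15.6-fold higher, not well above background in DMSO. Desmosomal Dsc2 was 28.2-fold and Dsp 4.85-fold higher, and the polarity gene Patj 5.46-fold higher. The adhesion genes Epcam and Cdh1 were 6.38-fold and 4.38-fold lower, and plakoglobin, Jup, was 6.26-fold lower. Krt17 was 4.73-fold lower. Median scaling turned the list's median to -0.09, beside -0.42 over all genes, and spike-in scaling turned it to -0.23, beside -0.56. The sign of the list's median thus depended on the scaling, while that median lay above the one of all genes in each. This gap was not tested.

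Under VC the same list had 10 of 28 genes lower and 18 not called, with a median of -0.20 against -0.00078 over all genes. Krt19 levels were 2.11, 2.23 and 2.25 in ddH2O and 1.45, 1.63 and 1.74 in VC (log2 difference -0.59, SE 0.09, limma adjusted p = 0.0119). Krt7 levels were 0.07, 0.06 and 0.04 in ddH2O and -1.16, -0.43 and -0.59 in VC (log2 difference -0.78, SE 0.18, limma adjusted p = 0.0341). Every VC array was below every ddH2O array for both. Krt20 (-0.78), Krt23 (-0.55), Dsp (-0.58), Patj (-0.83), Cldn7 (-0.64), Tjp3 (-0.39), Cldn3 (-0.34) and Pkp2 (-0.29) were the others called lower, of which Cldn7, Tjp3, Cldn3 and Pkp2 lost the call under median and spike-in scaling. Median scaling left 6 lower and called 2 higher, and spike-in scaling left 6 lower and called 1 higher.

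Paralogs of the regulators had 17 of 23 higher and 4 lower in RA, with a median of 1.09. Median scaling gave 13 and 5 with a median of 0.75, and spike-in scaling 12 and 5 with 0.61. Tbx2, a T-box repressor, was 71.8-fold higher, from a group in which it was above background on 1 DMSO array. Hand2, not well above background in DMSO, was roughly 21.7-fold higher. Gata6 and Gata4, endoderm and heart factors, were 5.56-fold and 3.22-fold higher. Tbx3, a T-box factor of naive stem cells, was 4.63-fold lower and Gata1, an erythroid factor, 3.91-fold lower. In VC 2 of 20 were higher and 2 lower, with a median of -0.14. Hand2 (-0.61) and Tbx21 (-0.44) were lower, and Tbx3 (0.26) and Tcf4 (0.24) higher. Tbx3 lost its call under quantile normalization, and Tbx21 under median, quantile and spike-in scaling.

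Over the 4 lists together, 66 of 105 tested genes were higher and 26 lower in RA. Median scaling, which moved the median of all genes to -0.42, gave 49 and 34. Spike-in scaling, which moved it to -0.56, gave 45 and 32. In VC 5 of 91 were higher and 20 lower, while median scaling gave 9 and 14 and spike-in scaling 7 and 13. Of all 14537 genes in VC, 958 were higher and 1536 lower, while median scaling gave 1510 and 1157 and spike-in scaling 1000 and 1031.

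**Figure D4:**
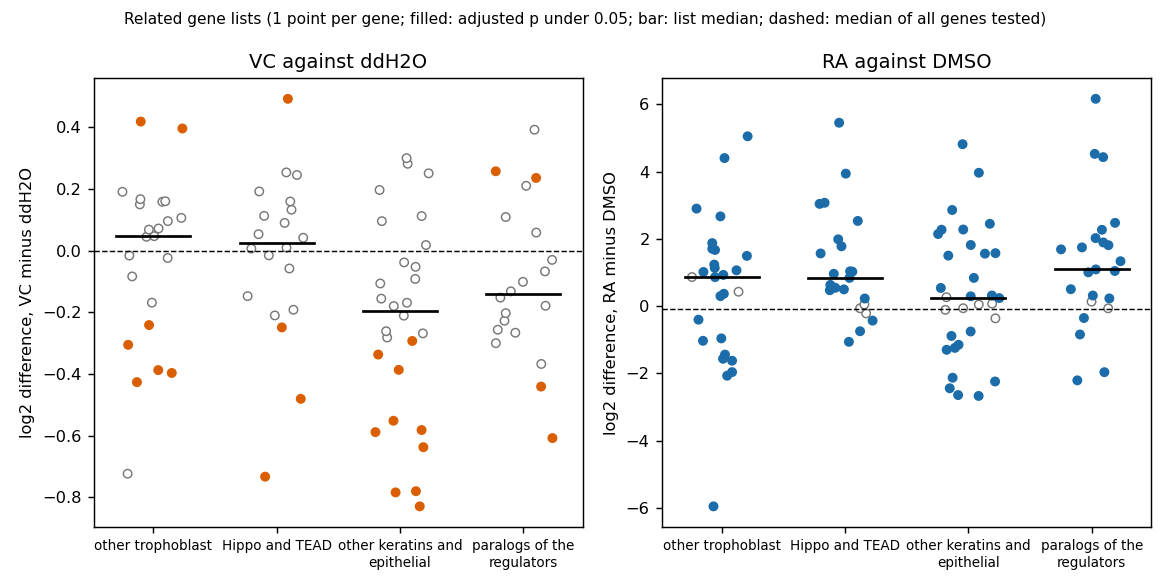
Log2 difference of every tested gene in the 4 related lists, in VC against ddH2O and in RA against DMSO. Each point is a gene, filled where called by limma, the bar is the list's median and the dashed line the median of all genes tested. Under RA the trophoblast, Hippo and paralog lists have medians of 0.86, 0.84 and 1.09, and under VC all 4 medians lie between -0.20 and 0.05.

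Markers of other cell types were read beside these genes. Their RA counts stand beside 35.9% of all genes called higher and 42.1% called lower. Of 10 primitive and visceral endoderm markers 9 were higher and 1 was not called, and their summed level, in units of the array's 75th percentile, went from 11.4 to 12.6 in DMSO to 32.0 to 37.7 in RA. Such sums weigh each probe by its brightness: Lama1 made up 92.0% of this one in DMSO and 83.2% in RA, and the other markers summed to 0.933 to 0.996 in DMSO and 5.67 to 6.19 in RA. Surface ectoderm and neural crest markers had 5 of 10 higher and 3 lower. Their sum went from 11.3 to 12.3 to between 44.7 and 51.0, with Trp63, which marks stratified epithelium, 11.6-fold higher and 95.6% of the sum in RA. Without Trp63 the sum was 7.56 to 8.08 in DMSO and 2.07 to 2.23 in RA, the opposite direction. The mean level of Trp63 was 1.99 in DMSO, but -6.64 in ddH2O on the VC design, with 1 ddH2O array above background. Fibroblast markers had 6 of 7 tested genes higher and 1 lower, with sums of 2.47 to 2.63 in DMSO and 68.8 to 78.3 in RA, while Postn, Lum and Fap were above background on no array. Cardiac and extraembryonic mesoderm markers had 3 of 7 higher and 2 lower, with sums of 13.1 to 13.2 and of 13.0 to 18.2. Kdr made up 71.8% and 77.6% of these, and Tbx20 was above background on no array. Mean levels of Kdr and Lama1 were 3.23 and 3.47 in DMSO, but -5.77 and -1.02 in ddH2O on the VC design. The cause of such gaps between the designs was not tested, so these control levels are not settled here.

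Differentiated trophoblast markers had 4 of 5 tested genes higher and 1 lower in RA, and their sum was 9.64 to 12.3 in DMSO and 4.68 to 10.3 in RA. Gcm1, the gene that was lower, made up 93.9% of that sum in DMSO and 77.5% in RA. Its mean level was 3.33 in DMSO, but -4.67 in ddH2O by another probe on the VC design. The cause of that gap was not tested, so the level of Gcm1 in control cells is not settled here. The fall of Gcm1 (log2 difference -0.96, SE 0.36, limma adjusted p = 0.0461) lost its call under quantile normalization. By its 3 other tested probes the difference ran from -0.95 to -0.05. The other markers summed to 0.633 to 0.692 in DMSO and to 1.53 to 1.85 in RA. Stem cell markers had 7 of 8 lower and 1 higher, and their sum fell from between 224 and 230 to between 12.5 and 12.8. The marker that rose was Nanog, 2.50-fold higher in RA (log2 difference 1.32, SE 0.12, limma adjusted p = 9.10e-05). The part of these cells or markers in the changes of the 10 genes was not tested.

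In VC, where 6.59% of all genes were called higher and 10.6% lower, 4 of 7 stem cell markers were higher and 3 not called. Their sums were 113 to 119 in ddH2O and 134 to 142 in VC. Each of these 7, and each of the 8 on the other design, was well above background on all 3 control arrays. Endoderm markers had 3 of 9 lower and 6 not called, with sums of 1.18 to 1.21 and of 1.08 in VC, and Ttr was above background on no array. Fibroblast markers had 1 of 7 higher and 2 lower, with sums of 11.8 to 13.0 and of 13.8 to 13.9. Acta2 made up 72.4% and 80.4% of these, and without it the sums were 3.32 to 3.66 and 2.55 to 2.93. Mesoderm markers had 1 of 7 higher and 3 lower, with overlapping sums. Surface ectoderm markers had 2 of 7 higher and 5 not called, with sums of 1.66 to 1.70 and of 1.79 to 2.08. Grhl2 made up 58.1% and 60.3% of these, and without it the sums overlapped, at 0.659 to 0.785 and 0.646 to 0.866. Of the differentiated trophoblast markers 2 were tested and not called, and Tpbpa, Synb and Plac1 were above background on no array. The part of these markers in the lower Krt8 and Krt18 was not tested.

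Side by side, Krt18 was read by the same probe in both comparisons and moved by -0.53 in VC and by 4.15 in RA, and Tfap2c by 0.21, not called, and by -3.83. The designs were normalized apart, and the difference between the 2 effects was not tested.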

How the data were processed

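Expression was measured in 12 samples on Agilent one-colour arrays, in 4 groups of 3. The intensity of each spot was taken from the deposited scanner files, whose software, Agilent Feature Extraction, had subtracted background and detrended it. Its version was 10.7.3.1 in the file headers and 10.7 in the submitters' processing notes. The deposited series tables hold log2 values, used as an alternative. Their scale is log2 by comparison with the scanner signal, and how their columns were aligned is not stated in the labels used here.

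Log2 of the processed intensity minus the 75th percentile of the array's non-control spots was used, with outlier spots left out and spots of a probe averaged. Probes were named by matching accessions to a RefSeq table (GRCm38.p6), 27479 of 41174 probes on the VC design and 27235 of 55681 on the RA design. Probes well above background made up 66.9% to 70.3% of the former arrays and 60.9% to 65.6% of the latter, and 0 spots were saturated. Differences were fitted by limma 3.58.1 (R 4.3.3) over all genes, and separately over all probes, with Benjamini-Hochberg adjustment and a threshold of 0.05. The designs were fitted apart. The fold is approximate, and given as roughly, for a gene none of whose probes rose well above background in a group. The dim group's mean was then taken over arrays from whichever was higher, the gene's signal or the array's dimmest signal called well above background. Signals not called can lie above that dimmest one, as for Krt15 in DMSO (mean -6.60), so such a fold is not a strict lower bound. For Ankrd1 and Krt15 it equals the plain fold. The fit was tested on simulated data. The labels do not say whether samples of a group were separate cultures, so p-values measure a spread that may be technical. The number of arrays limits the precision.

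The 10 genes, the 4 related lists and the 6 marker lists were chosen with earlier results of these data known. Named beside the 10 genes were up to 2 largest rises and 2 largest falls of each list among called genes without overlap, and Cdx2, Pou5f1, Krt7 and Krt19. Further list genes and the neighbours of Krt8 were named after their values were seen. Alternatives were other scalings, background corrections, filters, variance models, thresholds, blocks, probe summaries, the deposited log2 values and each sample left out.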

Additional observations from a re-analysis of the deposited data

How the results depend on the processing

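In RA against DMSO all 8 tested genes kept their direction and their call under all 18 alternatives, and with no filter on dim probes 9 were called. In VC against ddH2O the counts of called member genes (3), member probes (2) and related genes (25) moved by over 1.5 times. They were 1, 1 and 14 with normexp and high-background spots left out, and 0, 0 and 3 at an adjusted p under 0.01. By limma with slide as a fixed block they were 0, 0 and 0 (3, 4 and 38 at an unadjusted p under 0.05). Of all genes these settings called 980, 357 and 0, in that order, against 2494 in the main fit. Of all probes they called 543, 16 and 0, against 2335. With slide as a random block they were 3, 3 and 26, beside 2690 of all genes and 2611 of all probes. With no filter the probes were 0 by limma (4 at an unadjusted p under 0.05) and the related genes 11. That setting called 0 of all probes and 1004 of all genes. With an intensity trend the probes were 4, beside 3977 of all probes. With each replicate left out in turn they ranged from 0 to 3 genes, 0 to 1 probes and 3 to 19 related genes. In these fits 400 to 1812 of all genes and 0 to 1040 of all probes were called. With the replicate block they were 1, 0 (5 probes at an unadjusted p under 0.05) and 8, beside 937 of all genes and 0 of all probes. Deviations of same-numbered VC samples correlated at -0.12, 0.06 and -0.07, and of RA samples at -0.04, -0.0025 and -0.05. These values gave no sign that the numbers pair samples, but 3 arrays per group are too few to settle it. In RA the replicate block changed no call of the 8 tested genes and gave 90 related genes called against 92. Tfap2a in VC turned to 0.14 with slide as a fixed block and, with each replicate left out, ranged from -0.15 to 0.086 (the latter without VC replicate 3), and was never called. The cause of these changes was not tested. Krt18 lost its call in 3 of 20 alternatives, Krt8 in 8 and Tead4 in 10, all without a change of direction. Genes near background, Elf5 and Hand1 in both comparisons and Gata3 in VC, are limited by signal and not resolved here.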
